A study of Homo sapiens with 6 samples.

Results

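Of the 503 gene symbols of the form ZNF plus a number (with at most 1 letter after it) listed for 786-O cells, 144 are described here. They were selected on their level, a mean FPKM of 4 or more across all 6 libraries. FPKM counts fragments by transcript length and by library total. The tables list 17114 symbols in all, and 11151 with a mean of at least 1 FPKM were tested. That the 144 genes are expressed is therefore not a finding. The first group is 786-O cells given XMU_MP_1, with 3 libraries. The second is 786-O cells given Vehicle, with 3 libraries. 786-O is a human line of clear cell renal carcinoma origin that lacks functional VHL, so both groups come from 1 cell line. The compound XMU-MP-1 inhibits MST1 and MST2, the kinases at the top of the Hippo pathway that restrain the coactivator YAP. In both groups the cells were plated in 12-well plates and lysed in Trizol, and total RNA was sequenced from BGISEQ-500 libraries. The labels call the exposure to either agent a transfection, and the sources used here give no dose or duration. Nothing says that the 3 libraries of a group came from separate cultures, so the spread behind each p-value is that of libraries and may be technical.

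Most numbered ZNF genes encode proteins with C2H2 zinc fingers, small folds around a zinc ion that stand in arrays and read DNA a few bases at a time. The largest class also carries a KRAB domain, which recruits the scaffold protein TRIM28 and, through it, the histone methyltransferase SETDB1 and HP1 proteins, and so silences the sites that the fingers bind. Many of those sites lie in transposable elements, and many KRAB genes stand in clusters on chromosome 19 that arose by duplication. Other numbered ZNF genes share only the name and act in mitosis, ribosome maturation or RNA processing.

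The libraries of a group resembled each other more than those of the other group. Over the 144 genes, the SD of the difference in log2(FPKM + 1) was 0.111 to 0.164 between XMU_MP_1 libraries and 0.102 to 0.121 between Vehicle libraries, against 0.353 to 0.374 between libraries of different groups. XMU_MP_1 replicate 3 and Vehicle replicate 2 lay further from their group than the other 2 libraries of each did over all tested genes, with SDs of 0.165 and 0.160 to 0.164, against 0.109 and 0.121 within the remaining pairs. Of 11 renal carcinoma markers 10 had at least 1 FPKM, and CA9 lay at 0.03 to 0.26 FPKM. Their summed level was 3881 to 4129 FPKM in XMU_MP_1 libraries and 4568 to 4775 FPKM in Vehicle libraries. Of 6 markers of other cells 5 lay under 1 FPKM, with CDH5 and ALB at most 0.01 and 0.02, and EPCAM ran from 7.87 to 10.1 FPKM. The summed level of those 6 was 8.37 to 9.01 FPKM in XMU_MP_1 libraries and 9.25 to 10.8 FPKM in Vehicle libraries. The part of these marker shifts in the changes described next was not tested. In bulk RNA such as this, fewer cells of a type and less RNA per cell cannot be told apart. The values used here are FPKM, from which the depth of each library cannot be read.

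With XMU_MP_1, 59 of the 144 genes were higher and 25 were lower at an adjusted p of at most 0.05, and 60 did not pass (limma on log2(FPKM + 1), Benjamini-Hochberg over all 11151 genes). That is 41% higher and 17.4% lower, against 32.0% and 25.9% of all tested genes. The median log2 change of the 144 was 0.11, against 0.04 over all tested genes. The changes were small on this scale. In 125 of the 144 genes the log2 change was under 0.5 in size, and only ZNF608 exceeded 1. The 1 added to each FPKM understates the change of low genes. In FPKM without it, the Vehicle mean of ZNF697 was 2.22 times its XMU_MP_1 mean. The groups did not overlap in 65 genes that were higher and 32 that were lower, against 35.0% and 28.7% of all tested genes. Tested against a minimum fold of 1.5, ZNF707 was higher and ZNF608, ZNF697 and ZNF395 were lower, against 1.42% and 4.08% of all tested genes in those directions.

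The balance of rises and falls depended on the scaling, and on 1 library for the falls. With libraries rescaled to the same summed FPKM, 31 genes were higher and 30 lower, against 20.2% and 30.9% of all tested genes. The median of the 144 was then 0.02 and that of all tested genes -0.05. Without XMU_MP_1 replicate 1 the number of lower genes was 16, and with only the 2 close libraries of each group it was 28, beside 65 higher. Apart from the minimum fold of 1.5, 18 other settings were run, and 31 higher and 15 lower genes kept their call in each of those that tested them. Of these 46 genes 9 were tested in 17 settings, because a filter at 5 FPKM removed them. The threshold of 4 FPKM admitted some genes through 1 group. Of the 13 genes with a Vehicle mean under 4 FPKM 12 were higher, and of the 10 with an XMU_MP_1 mean under 4 FPKM 7 were lower, which their choice favours. Among the 121 genes with both means at 4 FPKM or more, 47 were higher and 18 lower. The 2 genes just inside the threshold were ZNF766, with means of 4.18 FPKM with XMU_MP_1 and 3.95 with Vehicle, and ZNF789, with 4.1 FPKM with XMU_MP_1 and 4.04 with Vehicle. Just outside were ZNF91, with 4.07 FPKM with XMU_MP_1 and 3.82 with Vehicle, and ZNF689, with 3.27 FPKM with XMU_MP_1 and 4.61 with Vehicle.

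**Figure D1:**
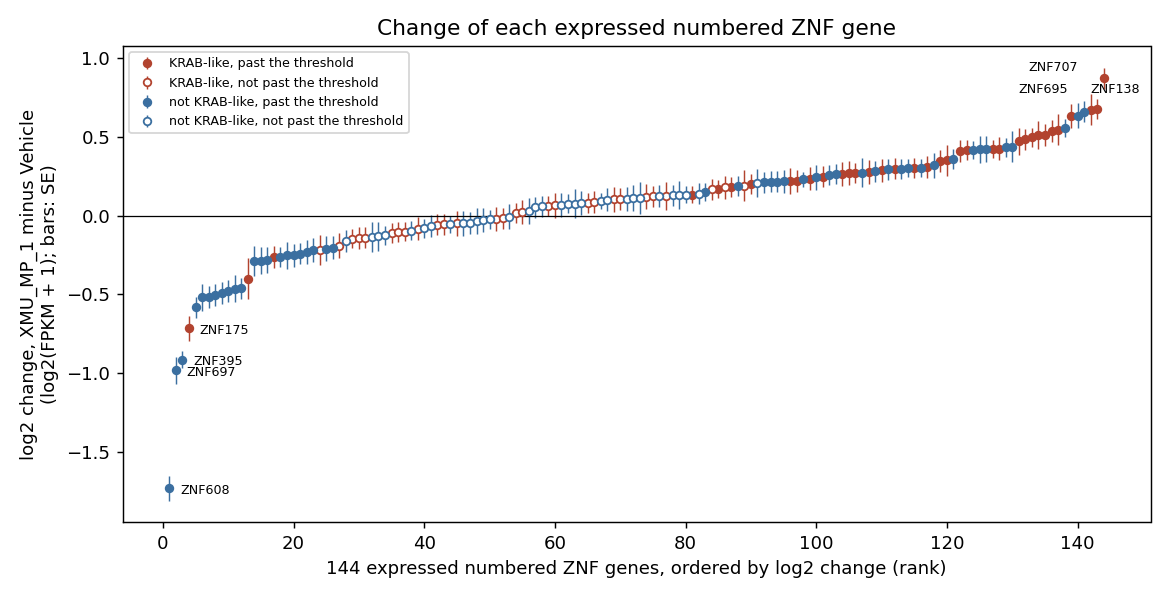
Change of each of the 144 genes, in order of size (x axis, rank), as log2 change of XMU_MP_1 minus Vehicle on the log2(FPKM + 1) scale (y axis), with bars for the standard error, colours for genes with and without a KRAB-like A box and open circles for genes that did not pass the test. Most points lie within 0.5 of zero, ZNF608 stands apart at -1.73, and ZNF707 is at the upper end at 0.87.

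Summed over the 144 genes, the level was 1460, 1472 and 1491 FPKM in the XMU_MP_1 libraries and 1395, 1410 and 1403 FPKM in the Vehicle libraries. The 3 XMU_MP_1 sums were above the 3 Vehicle sums, with a ratio of 1.05. As a share of all FPKM of the library, the same genes made up 0.291%, 0.297% and 0.282% with XMU_MP_1 and 0.288%, 0.31% and 0.288% with Vehicle. On that scale the groups overlapped and the ratio was 0.983. The difference in the sum therefore changed direction with the scaling.

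The 144 genes were split by whether the translated coding transcript held a KRAB-like A box, the part of the KRAB domain that binds TRIM28. The split itself uses sequence, but the threshold of 4 FPKM, which uses levels, acted on both classes. Of the 64 KRAB-like genes 33 were higher, 3 were lower and 28 did not pass, with a median log2 change of 0.18. Of the 80 others 26 were higher, 22 were lower and 32 did not pass, with a median of 0.07. That is 51.6% higher and 4.69% lower for the KRAB-like genes, against 32.0% and 25.9% of all tested genes. For the others it is 32.5% and 27.5%, near the shares of all tested genes. The 3 KRAB-like genes that fell were ZNF175, ZNF354A and ZNF688, named here because they are so few. The groups of ZNF688 overlapped, and its call was lost without XMU_MP_1 replicate 1 or Vehicle replicate 1 or 3, with adjusted p of 0.0651 to 0.0834. Its XMU_MP_1 mean, 3.72 FPKM, was under 4 FPKM. Of the 33 KRAB-like genes that were higher, 10 had a Vehicle mean under 4 FPKM, and of the 22 others that were lower, 6 had an XMU_MP_1 mean under 4 FPKM. With both means at 4 FPKM or more, 23 of 50 KRAB-like genes were higher and 2 lower (median log2 change 0.15), and 24 of 71 others were higher and 16 lower (median 0.08). The difference between the 2 classes was not tested.

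The sum of the KRAB-like genes was 469, 473.2 and 475.8 FPKM in XMU_MP_1 libraries and 415.7, 415.5 and 401.8 FPKM in Vehicle libraries. These sums did not overlap, and their ratio was 1.15. The sum of the others was 991.2, 998.8 and 1015 FPKM with XMU_MP_1 and 979.5, 994.3 and 1001 FPKM with Vehicle. Those sums overlapped between the groups, with a ratio of 1.01. As shares of all FPKM the ratios were 1.08 for the KRAB-like genes and 0.944 for the others. The KRAB-like shares were 0.0934%, 0.0955% and 0.0902% with XMU_MP_1 and 0.0858%, 0.0913% and 0.0825% with Vehicle. These overlapped, since XMU_MP_1 replicate 3 was under Vehicle replicate 2. Both classes include genes with 1 group mean under 4 FPKM. Of 14 such KRAB-like genes 10 were higher and 1 lower, and of 9 such others 2 were higher and 6 lower. After rescaling to the summed FPKM 17 KRAB-like genes were higher and 6 lower, while 14 of the others were higher and 24 lower. Over all tested genes 20.2% were then higher and 30.9% lower. Without XMU_MP_1 replicate 1 the others had 14 lower genes, and without XMU_MP_1 replicate 3 the KRAB-like genes had 5.

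**Figure D2:**
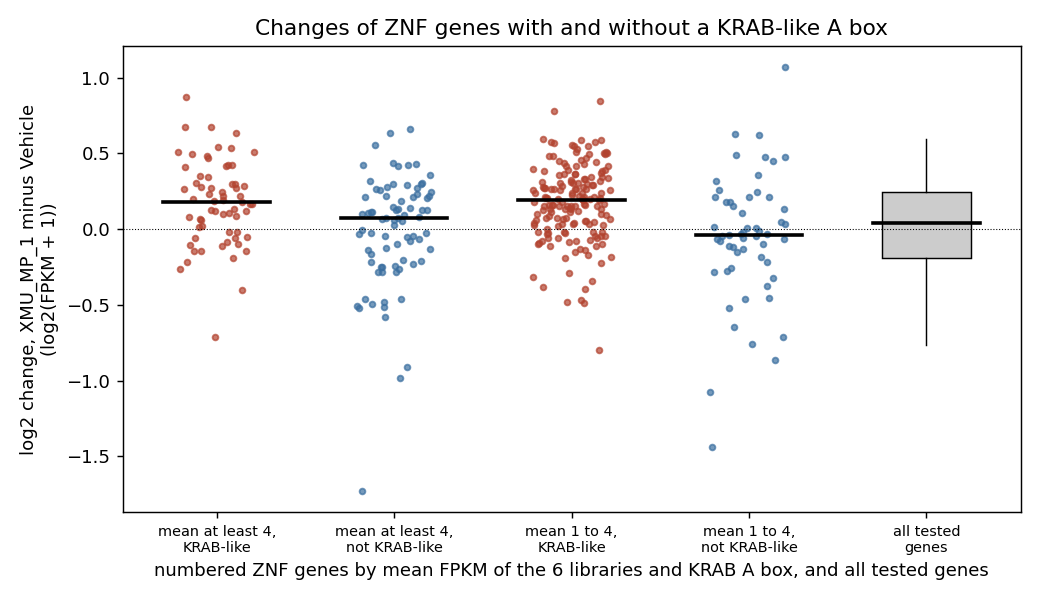
Log2 change of XMU_MP_1 minus Vehicle (y axis, log2(FPKM + 1) scale) for numbered ZNF genes by KRAB-like A box and mean level (x axis), with 1 point a gene and a bar at the median, and, for all tested genes, a box over the quartiles with whiskers from percentile 5 to percentile 95. The medians are 0.18 and 0.07 for KRAB-like and other genes at 4 FPKM or more, 0.19 and -0.04 for those at 1 to 4 FPKM, and 0.04 for all tested genes.

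The numbered ZNF genes under the threshold, with a mean of 1 to 4 FPKM, were not used to choose the 144. Of these 225 genes 93 were higher and 26 lower, with a median log2 change of 0.15. The 168 KRAB-like ones had 80 higher and 11 lower (median 0.19), and the 56 others with a coding transcript had 12 higher and 15 lower (median -0.04). The shares were 47.6% and 6.55%, and 21.4% and 26.8%, against 32.0% and 25.9% of all tested genes. They were measured in the same libraries, so they are not an independent repeat. Their make-up also differed from that of the 144, with a median transcript GC of 42.9% against 46% and more KRAB-like genes.

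KRAB-like genes had transcripts with less G and C than the others, with a median GC of 42.1% against 52.2%, and GC content moved with the change over all genes. Among tested genes of at least 4 FPKM, 36.4% were higher and 20.4% lower where the transcript GC was under 45%, and 30.3% and 30.1% where it was 55% or more. Within the class under 45%, 21 of 40 KRAB-like genes were higher and 2 lower, and 15 of 29 others were higher and 5 lower. Both kinds of ZNF gene thus had a similar share of rises there, but the threshold of 4 FPKM acted on them differently. Of the KRAB-like rises, ZNF107, ZNF160, ZNF254, ZNF28, ZNF43, ZNF595, ZNF695, ZNF718 and ZNF721 had a Vehicle mean under 4 FPKM, which favours a rise. The others that rose there had both means at 4 FPKM or more. The other GC classes also hold genes with 1 group mean under 4 FPKM. From 45 to 55%, 7 of 14 KRAB-like genes were higher and 0 lower, against 4 higher and 5 lower of 16 others. At 55% or more, 5 of 10 KRAB-like genes were higher and 1 lower, against 7 higher and 12 lower of 35 others. With the GC and length trends of all genes removed from each library, 33 KRAB-like genes were higher and 9 lower, and 32 of the others were higher and 20 lower. The median log2 changes were then 0.17 and 0.05, beside 0.18 and 0.07 in the main fit. The part of GC content in the difference between the classes was not tested further.

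**Figure D3:**
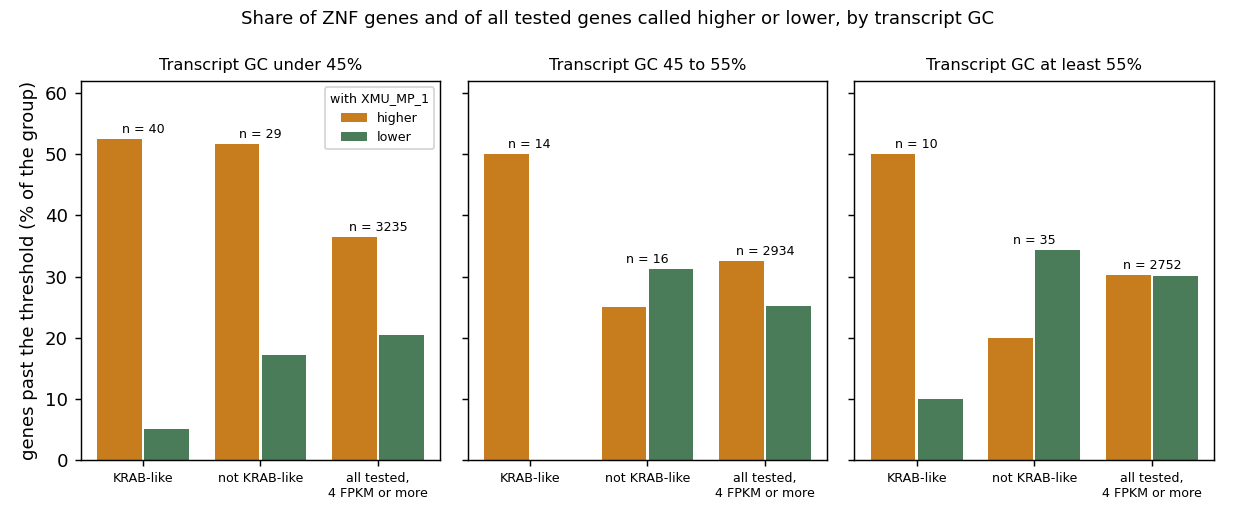
Share of genes past the threshold (y axis, % of the group) in 3 classes of transcript GC (panels), for KRAB-like ZNF genes, other ZNF genes and all tested genes of at least 4 FPKM (x axis), with separate bars for genes higher and lower with XMU_MP_1 and the number of genes above them. In the lowest GC class 21 of 40 KRAB-like genes and 15 of 29 others were higher, and in the highest class 5 of 10 and 7 of 35 were. Some of the KRAB-like genes that were higher in the lowest class had a Vehicle mean under 4 FPKM, which favours a rise.

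ZNF707, a KRAB-like gene on chromosome 8 (143684452 to 143713898, plus strand, GRCh38), had the largest rise. It had 10.75, 10.45 and 11.67 FPKM with XMU_MP_1 and 5.18, 5.79 and 5.64 FPKM with Vehicle. Each XMU_MP_1 library was well above the highest Vehicle library. The means were 11 ± 0.636 and 5.54 ± 0.318 FPKM (SD, n = 3 each), a ratio of 1.98 and a difference of 0.87 ± 0.068 on the log2 scale (SE; adjusted p = 1.88e-06, limma). ZNF138, a KRAB-like gene on chromosome 7, had 9.32, 8.79 and 8.4 FPKM with XMU_MP_1 and 5.11, 5.28 and 5.06 FPKM with Vehicle (log2 change 0.68, limma adjusted p = 7.55e-06). The Vehicle libraries were close together and the XMU_MP_1 libraries all lay above them. ZNF695, a KRAB-like gene on chromosome 1, had 5.31, 5.71 and 4.93 FPKM with XMU_MP_1 and 3.66, 2.74 and 2.56 FPKM with Vehicle (0.67, limma adjusted p = 0.000218). Its Vehicle replicate 1 was the highest of that group but still under every XMU_MP_1 library. ZNF595, a KRAB-like gene near the end of the short arm of chromosome 4, had 5.7, 6.27 and 5.66 FPKM with XMU_MP_1 and 3.79, 3.38 and 3.14 FPKM with Vehicle (0.63, limma adjusted p = 4.42e-05), with no overlap. With Vehicle means of 2.99 and 3.44 FPKM, ZNF695 and ZNF595 reached the threshold of 4 FPKM only through XMU_MP_1, which favours a rise.

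Genes without a KRAB-like A box were also among the 10 largest rises. ZNF322 had a mean of 7.62 ± 0.314 FPKM with XMU_MP_1 and 4.46 ± 0.206 FPKM with Vehicle (SD, n = 3 each), but 27.6% of its transcript's 50-base stretches also occur elsewhere, mostly in its pseudogene ZNF322P1, so its level is uncertain. ZNF75A had 6.82, 6.92 and 7.57 FPKM with XMU_MP_1 and 3.82, 4.73 and 4.13 FPKM with Vehicle. ZNF672 had 13.37, 14.16 and 13.65 FPKM with XMU_MP_1 and 8.82, 9.27 and 8.97 FPKM with Vehicle. In all 3 genes the groups did not overlap. The remaining 3 of the 10, ZNF213, ZNF680 and ZNF274, had log2 changes of 0.55, 0.53 and 0.51, each KRAB-like and each without overlap. ZNF274 is known for recruiting SETDB1 to the 3′ ends of other ZNF genes. It had 7.94, 7.83 and 9.12 FPKM with XMU_MP_1 and 5.36, 5.41 and 5.76 FPKM with Vehicle (limma adjusted p = 0.000137).

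**Figure D4:**
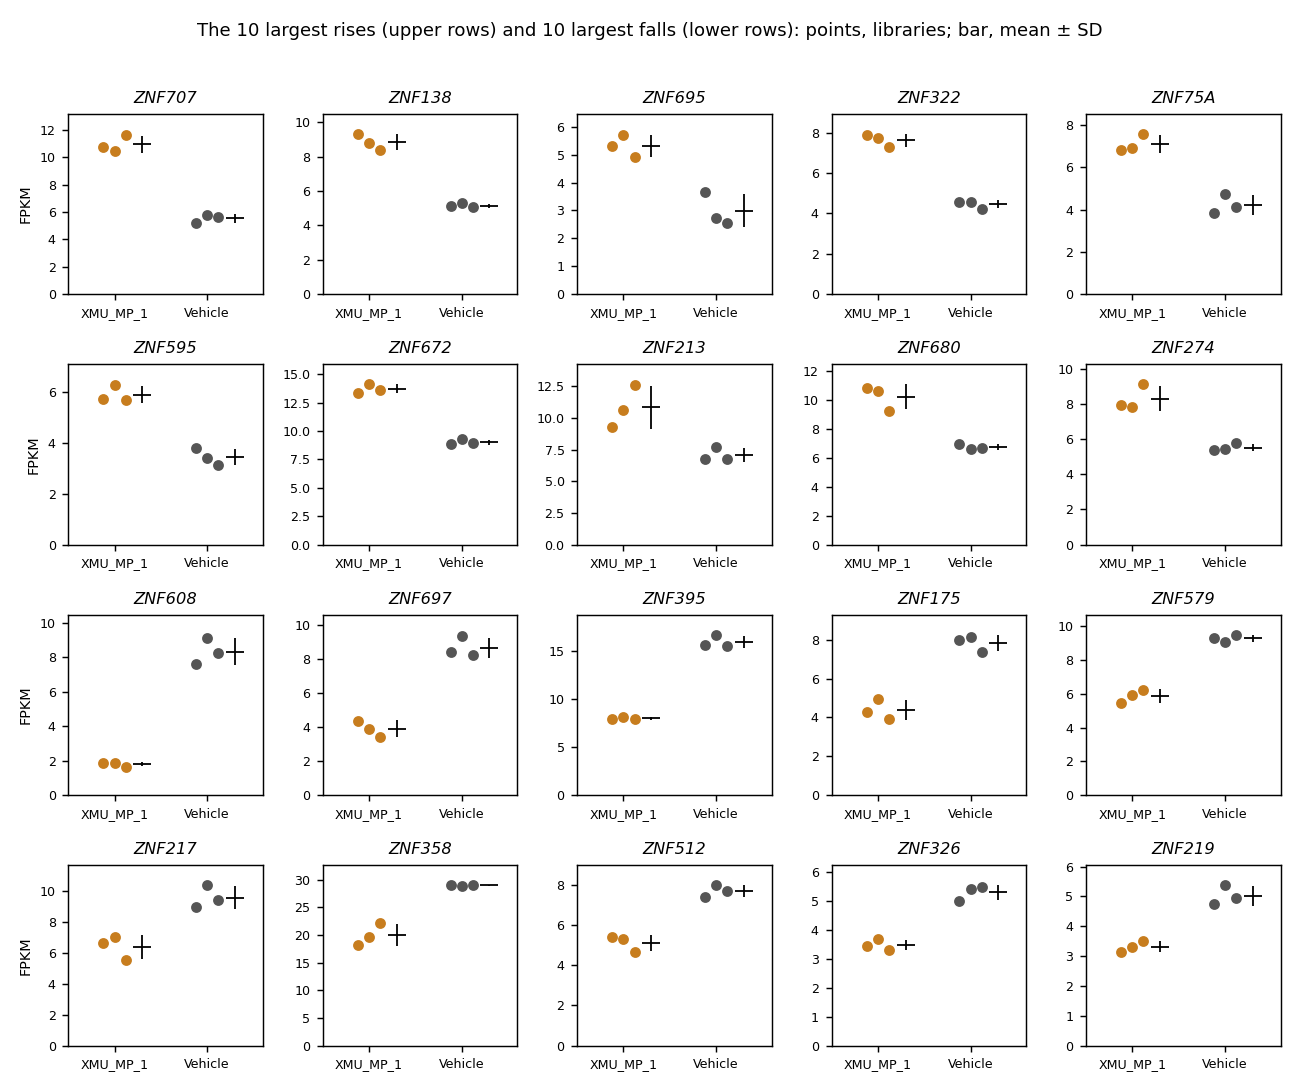
FPKM (y axis) of the 10 genes with the largest rise (upper rows) and the 10 with the largest fall (lower rows), with 1 point a library, XMU_MP_1 left and Vehicle right (x axis), and a bar at the mean with the SD. In each panel the 2 groups do not overlap. ZNF608 is at 1.66 to 1.89 FPKM with XMU_MP_1 and 7.61 to 9.15 FPKM with Vehicle.

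ZNF608 had by far the largest fall. Its counterpart in mouse thymocytes has been described as a repressor of the Rag genes. The gene spans 124636913 to 124748807 on the minus strand of chromosome 5 (GRCh38). It had 1.89, 1.88 and 1.66 FPKM with XMU_MP_1 and 7.61, 9.15 and 8.23 FPKM with Vehicle. The means of 1.81 ± 0.13 and 8.33 ± 0.775 FPKM (SD, n = 3 each) give a Vehicle level 4.6 times that with XMU_MP_1, and a difference of -1.73 ± 0.079 on the log2 scale (SE; adjusted p = 4.44e-08, limma). ZNF697, on chromosome 1, had 4.37, 3.91 and 3.39 FPKM with XMU_MP_1 and 8.38, 9.32 and 8.22 FPKM with Vehicle (-0.98, limma adjusted p = 3.88e-06). Neither gene holds a KRAB-like A box, and neither had overlapping groups. With XMU_MP_1 means of 1.81 and 3.89 FPKM, ZNF608 and ZNF697 reached the threshold of 4 FPKM only through Vehicle, which favours a fall. ZNF395, a factor known to be induced in hypoxia, had 7.87, 8.14 and 7.89 FPKM with XMU_MP_1 and 15.62, 16.59 and 15.46 FPKM with Vehicle (-0.91, limma adjusted p = 3.69e-07). Its 3 XMU_MP_1 libraries were close together and far under each Vehicle library, but 41.7% of its transcript's 50-base stretches also occur in the overlapping gene FBXO16, so the level cannot be given to ZNF395 alone.

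ZNF175, described in macrophages as a repressor of the HIV promoter, was the KRAB-like gene with the largest fall, with 4.3, 4.93 and 3.93 FPKM with XMU_MP_1 and 7.97, 8.13 and 7.37 FPKM with Vehicle (-0.72, limma adjusted p = 2.51e-05). ZNF217, which binds the CtBP and CoREST corepressors and is amplified in breast cancers, had 6.67, 7.02 and 5.53 FPKM with XMU_MP_1 and 8.95, 10.37 and 9.44 FPKM with Vehicle (-0.52, limma adjusted p = 0.000452). ZNF326, a subunit of the DBIRD complex that links transcript elongation with splicing, had 3.45, 3.66 and 3.3 FPKM with XMU_MP_1 and 5, 5.39 and 5.47 FPKM with Vehicle (-0.49, limma adjusted p = 0.000122). In these 3 genes every XMU_MP_1 library was under every Vehicle library. The other 4 of the 10 largest falls were ZNF579, ZNF358, ZNF512 and ZNF219, with log2 changes of -0.58, -0.52, -0.51 and -0.48. ZNF358 and ZNF512 share 19.5% and 34.1% of their stretches with annotated neighbours and are uncertain. With XMU_MP_1 means of 3.47 and 3.32 FPKM, ZNF326 and ZNF219 reached the threshold of 4 FPKM only through Vehicle, which favours a fall.

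Promoter sequences are shown for the 3 largest KRAB-like rises and the 2 largest falls among those with a sequence that may be shown here, because they let the start regions of genes that moved apart be compared. Each is the 200 bases before the RefSeq start (GRCh38.p14), 5′ to 3′ on the strand of the gene. Capitals mark CCAAT and CCGGAAG, the cores of the CCAAT box bound by NF-Y and of the site bound by ETS factors, on either strand, so that ATTGG and CTTCCGG are their reverse forms. ZNF138 is at chr7:64794228-64794427 (plus strand), ZNF695 at chr1:247008058-247008257 (minus), ZNF595 at chr4:53121-53320 (plus), ZNF608 at chr5:124748825-124749024 (minus) and ZNF697 at chr1:119648267-119648466 (minus).
ZNF138: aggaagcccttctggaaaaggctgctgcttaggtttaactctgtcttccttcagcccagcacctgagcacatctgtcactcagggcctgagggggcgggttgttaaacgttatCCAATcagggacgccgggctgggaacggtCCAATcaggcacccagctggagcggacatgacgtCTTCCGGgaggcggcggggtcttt
ZNF695: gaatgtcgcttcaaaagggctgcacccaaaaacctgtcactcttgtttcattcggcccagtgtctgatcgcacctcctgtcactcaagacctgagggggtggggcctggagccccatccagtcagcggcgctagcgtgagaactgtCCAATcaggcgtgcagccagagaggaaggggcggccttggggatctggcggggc
ZNF595: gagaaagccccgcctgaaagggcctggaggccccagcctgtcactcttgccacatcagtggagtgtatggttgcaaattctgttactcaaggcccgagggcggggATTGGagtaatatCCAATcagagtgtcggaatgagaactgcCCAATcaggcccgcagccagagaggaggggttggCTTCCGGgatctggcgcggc
ZNF608: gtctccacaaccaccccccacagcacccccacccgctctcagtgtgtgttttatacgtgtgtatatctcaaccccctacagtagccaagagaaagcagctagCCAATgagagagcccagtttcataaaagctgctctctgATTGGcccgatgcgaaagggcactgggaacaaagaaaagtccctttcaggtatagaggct
ZNF697: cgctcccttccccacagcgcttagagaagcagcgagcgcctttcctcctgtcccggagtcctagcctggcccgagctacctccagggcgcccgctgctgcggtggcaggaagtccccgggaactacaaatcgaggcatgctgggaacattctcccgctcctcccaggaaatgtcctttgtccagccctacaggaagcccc
The promoters of ZNF138, ZNF695 and ZNF595, which rose, hold CCAAT, as does that of ZNF608, which fell. The ZNF697 window holds neither motif.

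RefSeq promoter windows of 250 bases before to 50 after the start were found for 126 of the 144 genes. CCAAT, on either strand, was present in 37 of 54 KRAB-like genes (68.5%), 22 of 72 others (30.6%), 37% of the 9092 tested genes with a window and 35.7% of all 27305 windows. CCGGAAG was present in 59.3% of KRAB-like genes, 37.5% of the others, 21.1% of tested genes and 10.7% of all windows. Both motifs therefore occurred in a larger share of KRAB-like promoters than of the other classes. Their letters cannot overlap each other, whereas other motifs searched may share outer bases. In genes that rose the shares were 57.7% for CCAAT and 50% for CCGGAAG, and in genes that fell 30% for each. KRAB-like genes are 33 of the 59 genes that rose and 3 of the 25 that fell. GCGCATG, from the NRF1 site, was present in 5.56% of KRAB-like genes and 9.72% of the others, against 7.93% of tested genes. It was thus uncommon in both classes. GGAATG, the core of the TEAD site, was present in 18.5% of KRAB-like genes, 12.5% of the others and 10.6% of tested genes. GGAATTTCC, from the site of the NF-κB subunit RelA, was present in 0% of both classes and 0.462% of tested genes. GGGCGG, the GC box, was the most frequent, in 69% of the 126 genes and 71.8% of tested genes. TGANTCA, the site of AP-1, was present in 13% of KRAB-like genes and 2.78% of the others, against 4.23% of tested genes. It was thus more frequent in the KRAB-like class, in 7 genes against 2. ACTACAA of the factor ZNF143 itself was present in 1.85% of KRAB-like genes and 9.72% of the others, against 4.05% of tested genes. TGACGTCA of the factor CREB was present in 5.56% of KRAB-like genes and 9.72% of the others, against 3.38% of tested genes. Both were thus less frequent in the KRAB-like class. CACGTG, the E-box, was present in 9.26% of KRAB-like genes and 4.17% of the others, against 10.4% of tested genes. AAGATGG of the factor YY1 was present in 7.41% of KRAB-like genes and 6.94% of the others, against 8.02% of tested genes. TATAAA, the TATA box, was present in 3.7% of KRAB-like genes and 2.78% of the others, against 5.04% of tested genes. With so few promoters these counts differ by a handful of genes, and no difference was tested. All were searched on both strands. A match is only a run of letters and shows no binding.

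The genes with known roles fall into lists of 3 to 9 expressed genes. Their counts describe those genes only, and 32.0% of all tested genes were higher and 25.9% lower. The most abundant gene of the 144 acts in mitosis. ZNF207 (BuGZ), a kinetochore protein that stabilises BUB3, had 128.52, 127.15 and 125.43 FPKM with XMU_MP_1 and 108.76, 105.06 and 110.69 FPKM with Vehicle. The groups were apart, and the difference was 0.23 ± 0.049 on the log2 scale (SE; adjusted p = 0.00215, limma), a call that held in the 18 settings other than the minimum fold of 1.5, where its adjusted p was 1. The counts of settings given next leave out that minimum fold in the same way. Of the 4 expressed genes listed for cell division and the cytoskeleton (7 listed), 3 were higher and 1 lower. ZNF330, a nucleolar autoantigen, had 20.29, 20.43 and 19.51 FPKM with XMU_MP_1 and 14.26, 14.64 and 15.49 FPKM with Vehicle (0.42, limma adjusted p = 8.73e-05), with no overlap. ZNF655, with 33.85, 33.47 and 33.82 FPKM with XMU_MP_1 and 32.39, 29.63 and 29.99 FPKM with Vehicle, passed narrowly (0.13, limma adjusted p = 0.0477), and this call held in 5 of 18 settings. It was lost on leaving out any library but Vehicle replicate 1, with adjusted p of 0.0622 to 0.137. The fall of ZNF318 (-0.21, limma adjusted p = 0.0485) held in 9 of 18. It was lost without XMU_MP_1 replicate 1 or 3 or Vehicle replicate 2 or 3, where its adjusted p was 0.0623 to 0.172.

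Of 9 expressed genes with roles at the ribosome and in RNA processing (10 listed), 3 were higher and 3 lower, which is 33.3% for each. ZNF593, whose yeast homolog acts in maturation of the large ribosomal subunit, had 51.92, 47.67 and 58.65 FPKM with XMU_MP_1 and 61.43, 58.21 and 69.31 FPKM with Vehicle. Its groups overlapped, since XMU_MP_1 replicate 3 was above Vehicle replicate 2, although it passed the test (-0.25, limma adjusted p = 0.0226). That call was lost without XMU_MP_1 replicate 1 or 2 or Vehicle replicate 3, with adjusted p of 0.0634 to 0.0962. ZNF706, with 44.41, 43.8 and 47.82 FPKM with XMU_MP_1 and 55.36, 46.29 and 55.98 FPKM with Vehicle, overlapped in the same way (-0.20, limma adjusted p = 0.0356). Its call held in 11 of 18 settings and was lost without any 1 of XMU_MP_1 replicates 1 and 2 and Vehicle replicates 1 and 3. ZNF830 and ZNF638 rose by 0.29 and 0.22 (limma adjusted p = 0.00302 and 0.0178). ZNF638 (NP220) is known for recruiting the HUSH silencing complex to unintegrated retroviral DNA, and its call was lost without XMU_MP_1 replicate 1 or Vehicle replicate 1 or 3, with adjusted p of 0.0643 to 0.0805.

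Of 3 genes listed for ubiquitin and SUMO pathways, each of them expressed, 2 were higher. ZNF451, a SUMO ligase, had 9.52, 9.27 and 7.21 FPKM with XMU_MP_1 and 5.69, 6.02 and 6.61 FPKM with Vehicle (0.44, limma adjusted p = 0.00278). XMU_MP_1 replicate 3 was the lowest of its group but above each Vehicle library. ZNF598, which ubiquitinates ribosomal proteins where ribosomes collide, had 35.72, 38.2 and 34.94 FPKM with XMU_MP_1 and 31.83, 34.6 and 31.55 FPKM with Vehicle (0.15, limma adjusted p = 0.0466). The groups were just apart, and the call was lost without XMU_MP_1 replicate 1 or 2 or Vehicle replicate 1 or 3, with adjusted p of 0.0813 to 0.185. ZNF746 (PARIS), a substrate of the ligase parkin, had means of 9.85 ± 0.412 FPKM with XMU_MP_1 and 9.27 ± 0.505 FPKM with Vehicle (SD, n = 3 each), and the groups overlapped.

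Of 7 expressed partners of corepressors and chromatin complexes (16 listed), 3 were higher and 2 lower, which is 42.9% and 28.6%, against 32.0% and 25.9% of all tested genes. Beside the falls of ZNF217 and ZNF219, ZNF687, a partner of the chromatin reader ZMYND8, had 8.85, 9.36 and 8.93 FPKM with XMU_MP_1 and 6.89, 7.62 and 7.02 FPKM with Vehicle (0.30, limma adjusted p = 0.00218). ZNF703, a corepressor of the NET family amplified in luminal breast cancers, had 8.39, 7.83 and 8.18 FPKM with XMU_MP_1 and 6.41, 6.9 and 6.61 FPKM with Vehicle (0.26, limma adjusted p = 0.00465). Neither gene's groups overlapped. ZNF644, which recruits the methyltransferases G9a and GLP, was the third that rose (0.21, limma adjusted p = 0.0168), a call lost without XMU_MP_1 replicate 2 (adjusted p = 0.0755) or Vehicle replicate 2 (0.0547). After rescaling by the summed FPKM, ZNF687 and ZNF703 no longer passed, with adjusted p of 0.0587 and 0.103.

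Among activators and promoter-binding factors 2 of 8 expressed genes were higher and 2 lower (11 listed). ZNF143, which binds promoters directly and takes part in chromatin loops, had 9.19, 9.36 and 9.44 FPKM with XMU_MP_1 and 7.37, 6.71 and 7.09 FPKM with Vehicle (0.36, limma adjusted p = 0.0005). ZNF281, a partner of MYC, had 7.44, 7.36 and 5.84 FPKM with XMU_MP_1 and 8.29, 9.02 and 8.38 FPKM with Vehicle (-0.29, limma adjusted p = 0.0156). In both genes the groups were apart. ZNF367 passed (0.19, limma adjusted p = 0.0297), and its call was lost without XMU_MP_1 replicate 1 or 2 or Vehicle replicate 1, with adjusted p of 0.095 to 0.136.

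Of 26 genes listed for binding retroelements or imprinted regions 8 were expressed, with 2 higher and 1 lower. ZNF263 had 10.47, 10.83 and 10.68 FPKM with XMU_MP_1 and 7.67, 7.9 and 7.53 FPKM with Vehicle (0.42, limma adjusted p = 0.000107), and ZNF274 is the other that rose. ZNF354A, a gene known from rat kidney as Kid-1, had 5.36, 5.8 and 5.23 FPKM with XMU_MP_1 and 6.87, 7.1 and 6.32 FPKM with Vehicle (-0.26, limma adjusted p = 0.00736). It shares 20.7% of its stretches with other genes, mostly ZNF354B. ZNF93, known for silencing LINE-1 elements in primates, did not pass, with 6.37 ± 0.335 FPKM with XMU_MP_1 and 6.95 ± 0.199 FPKM with Vehicle (SD, n = 3 each, limma adjusted p = 0.162), and is named after its values were seen. ZNF146, a protein made only of fingers, had 32.63, 31.44 and 30.58 FPKM with XMU_MP_1 and 28.83, 30.51 and 29.36 FPKM with Vehicle. Its groups were just apart, and it did not pass (0.09, limma adjusted p = 0.152). Of the last 2 of the 8 most abundant genes, ZNF787 fell (-0.24, limma adjusted p = 0.0119), a call lost without XMU_MP_1 replicate 1 (adjusted p = 0.0545), and ZNF580 overlapped between groups (-0.03, limma adjusted p = 0.79).

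By position, 45 of the 144 genes lie on chromosome 19, of which 15 were higher and 7 lower, against 272 higher and 155 lower of all 771 tested genes there. The 15 rises were all KRAB-like, among 30 such genes with 1 fall. Of these rises, ZNF160, ZNF254, ZNF28 and ZNF43 had a Vehicle mean under 4 FPKM, which favours a rise. The 15 other genes on that chromosome had 0 rises and 6 falls. Their median transcript GC was 61.7%, against 41.7% in the 30 KRAB-like genes there, and the part of GC in this split was not tested. On the other chromosomes 18 of 34 KRAB-like genes were higher and 2 lower, and 26 of 65 others were higher and 16 lower. Both classes there hold genes with 1 group mean under 4 FPKM, such as ZNF595, which rose, and ZNF608, which fell. On chromosome 7, 10 of 17 genes were higher and 0 lower, against 182 and 146 of 538 tested genes there. On chromosome 16, 7 of 15 were higher and 2 lower, against 188 and 126 of 528 tested genes there. On chromosome 1, 4 of 11 were higher and 5 lower, against 368 and 284 of 1110.

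Neighbouring genes did not always move together. Of 38 pairs at most 100000 bases apart, both genes passed in 15 pairs, with both higher in 9, both lower in 4 and in opposite directions in 2. Many of these pairs share genes, such as those within the chromosome 16 row and the chromosome 19 group given next. The counts are therefore not of separate places, and no such count was made over all tested genes. The genes of these pairs are named after their values were seen. On chromosome 16, ZNF213, ZNF200, ZNF263, ZNF75A and ZNF174 stand in a row and rose by 0.55, 0.27, 0.42, 0.64 and 0.24. Their neighbour ZNF205, 9260 bases from ZNF213, had a log2 change of -0.22 and did not pass. The Vehicle mean of ZNF200, 3.87 FPKM, was under 4 FPKM. The call of ZNF200 was lost without XMU_MP_1 replicate 1 or 3 or Vehicle replicate 1 (adjusted p 0.0599 to 0.0989), and that of ZNF174 without XMU_MP_1 replicate 3 or Vehicle replicate 1 or 2 (0.0538 to 0.0877). On chromosome 19, ZNF579, ZNF524 and ZNF865 fell by 0.58, 0.29 and 0.22 on the log2 scale, and the adjoining ZNF580 and ZNF581 did not pass. The call of ZNF524 was lost without XMU_MP_1 replicate 1 or Vehicle replicate 1 (adjusted p 0.0881 and 0.076), and that of ZNF865 without XMU_MP_1 replicate 1 or 2 or Vehicle replicate 2 or 3 (0.0591 to 0.123). On chromosome 1, ZNF672 and ZNF692 lie 489 bases apart and changed by 0.56 and -0.28. ZNF692 had 7.5, 7.82 and 9.42 FPKM with XMU_MP_1 and 10.75, 9.74 and 10.18 FPKM with Vehicle. Its groups were apart, and its call was lost without XMU_MP_1 replicate 1 (adjusted p = 0.0564). On chromosome 8, ZNF707 rose while ZNF623, 28034 bases away, fell by 0.26 on the log2 scale. Whether counting was by strand is not stated, so overlapping neighbours cannot be fully separated.

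Over all tested genes 32.0% were higher and 25.9% lower. The share of rises was 60.9% in the 23 genes with 15 or more C2H2 fingers, of which 14 were higher and 2 lower (median log2 change 0.22). The 14 that rose were all KRAB-like, and the 2 that fell, ZNF629 and ZNF865, were not. Finger number and the KRAB split were thus not separate here. Among the 14, ZNF107, ZNF133, ZNF160, ZNF28, ZNF43, ZNF595 and ZNF721 had a Vehicle mean under 4 FPKM, which favours a rise. Of 36 genes with 10 to 14 fingers 12 were higher and 5 lower (median 0.09), which is 33.3% and 13.9%. Of 46 with 5 to 9 fingers 19 were higher and 7 lower (median 0.07), which is 41.3% and 15.2%. Of 34 with 1 to 4 fingers 11 were higher and 10 lower (median 0.08), which is 32.4% and 29.4%, near the shares of all tested genes. The 5 genes with 0 recognised fingers had 3 higher and 1 lower. By level, 36 of 92 genes at 4 to 8 FPKM were higher and 19 lower (39.1% and 20.7%). At 8 to 16 FPKM 17 of 35 were higher and 2 lower (48.6% and 5.71%). At 16 FPKM or more 6 of 17 were higher and 4 lower (35.3% and 23.5%). The genes with 1 group mean under 4 FPKM, of which 12 were higher and 7 lower, all stand in the class at 4 to 8 FPKM. Their choice favours these calls, so the level classes are not alike in selection. Of the 116 genes with at most 5% of stretches shared with other genes, 48 were higher and 21 lower, close to the shares of the whole set.

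Transcripts of the corepressor machinery that KRAB domains recruit were also measured. Of 26 tested genes (27 listed) 9 were higher, 7 lower and 10 did not pass, which is 34.6% and 26.9%, near the 32.0% and 25.9% of all tested genes. The median log2 change was 0.05. TRIM28, the scaffold itself, had 215.74, 227.07 and 235.13 FPKM with XMU_MP_1 and 167.44, 168.3 and 160.13 FPKM with Vehicle (0.45, limma adjusted p = 5.83e-05). SETDB1, the methyltransferase that TRIM28 recruits, had 5.11, 4.73 and 4.23 FPKM with XMU_MP_1 and 6.33, 6.35 and 5.87 FPKM with Vehicle (-0.34, limma adjusted p = 0.00275). The scaffold was thus higher and the enzyme lower, each without overlap. ATF7IP, the stabilising partner of SETDB1, had means of 9.71 ± 0.62 FPKM with XMU_MP_1 and 6.45 ± 0.345 FPKM with Vehicle (SD, n = 3 each; 0.52, limma adjusted p = 8.29e-05). CHD4, the remodeller of the NuRD complex that TRIM28 also recruits, had 24.1, 24.87 and 22.27 FPKM with XMU_MP_1 and 39.78, 45.22 and 38.6 FPKM with Vehicle (-0.77, limma adjusted p = 4.95e-06). ZNF410, known to drive CHD4 transcription and named here for that reason, had 21.8, 21.29 and 22.18 FPKM with XMU_MP_1 and 18.68, 20.01 and 20.66 FPKM with Vehicle (0.13, limma adjusted p = 0.0618) and did not pass. Of its transcript's 50-base stretches 85.5% also occur in the annotated gene AC005520.1, so this level is uncertain. MORC3, a silencing ATPase, rose (0.65, limma adjusted p = 1.83e-05).

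Related zinc finger families were tested in the same libraries. Of 19 tested ZSCAN and ZKSCAN genes, which pair fingers with a SCAN domain, 10 were higher and 1 lower, with a median log2 change of 0.26. Of 10 ZFP genes 5 were higher and 1 lower (median 0.16). Of 35 ZBTB genes, which carry a BTB domain in place of KRAB, 11 were higher and 8 lower (median 0.03). That is 31.4% and 22.9%, near the 32.0% and 25.9% of all tested genes. Differences between these families and the 144 genes were not tested.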

How the data were processed

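Per the labels' protocols, total RNA of 786-O cells was sequenced on BGISEQ-500. The authors deposited 1 table of FPKM per library, per the file headers, and the submitters' processing notes name GRCh38. No aligner, quantifier or annotation is named in the sources used here. Groups were taken from the treatment labels and replicate numbers from the titles. FPKM are relative to each library's total, so a change in a few abundant genes shifts the others. Summed FPKM were 502040, 495351 and 527709 in XMU_MP_1 libraries and 484517, 454889 and 487218 in Vehicle libraries. They are not depths, and precision rests on 3 libraries a group.

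Genes whose mean reached 1 FPKM were tested in limma 3.58.1 (R 4.3.3, statmod 1.5.0). The model held group alone, on log2(FPKM + 1) values, with trended and robust variance moderation. P-values are two-sided and adjusted by Benjamini-Hochberg over all 11151 genes, with a threshold of 0.05. The pseudocount of 1 understates the change of low genes. Log2 changes are XMU_MP_1 minus Vehicle. The script was tested on simulated data.

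Positions, transcript length and GC are those of GENCODE release 29, which holds all 144 genes. Coding transcripts of GENCODE were translated, since the protein table planned for this was not used here. A KRAB-like A box has at least 17 of 40 residues identical to a consensus. ZNF394, with exactly 17, stands at that limit, and ZNF286A, with 16, lies just under it and was counted among the others. C2H2 fingers were counted by their spacing of 2 cysteines and 2 histidines. Shared sequence is the percent of 50-base stretches of the longest coding transcript found in transcripts of other genes. Promoters are from RefSeq (GRCh38.p14).

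The members, the gene lists and the tests were chosen with earlier results of these data known. The genes named are the 8 with the highest mean, the 10 largest rises and 10 largest falls past the threshold without overlap, up to 4 of each list by adjusted p, 2 on each side of the threshold of 4 FPKM, and up to 4 genes of the KRAB machinery plus TRIM28 and SETDB1. Others were named after their values were seen. The alternatives are listed in the closing section.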

Additional observations from a re-analysis of the deposited data

How the results depend on the processing

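The median log2 change of the 144 genes was 0.110 and stayed above 0 in each alternative. It was 0.123 with a pseudocount of 0.1, 0.078 after rescaling by the median ratio, 0.025 after rescaling by the summed FPKM, 0.133 with GC and length trends removed, 0.148 over genes of at least 2 FPKM, 0.133 over those of at least 8 FPKM, 0.129 with the close pairs only (chosen after seeing the data), and 0.094 to 0.138 with 1 library left out. The number of higher genes was 31 after rescaling by the summed FPKM, 1 against a minimum fold of 1.5, 120 of 275 at 2 FPKM, 23 of 52 at 8 FPKM and 48 to 57 with 1 library left out. The number of lower genes was 3, 42, 6 and 16 to 27 under the last 4 of these. The other settings, which were rescaling by the median ratio, removal of GC and length trends, close pairs only, a pseudocount of 0.5, no filter, a filter at 5 FPKM, no trend or robust moderation, averaged close pairs (47 higher, 17 lower) and genes at 4 FPKM in both means, kept both counts within 1.5 times. The ratio of summed FPKM was 1.03 after rescaling by the median ratio, 0.983 by the summed FPKM and 1.07 at 2 FPKM, and 1.05 to 1.06 with 1 library left out. The cause of these shifts was not tested.

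Same-numbered libraries of the 2 groups deviated together with correlations of -0.204, 0.392 and 0.244 for numbers 1, 2 and 3 over 11151 genes. Deviations from the mean of only 3 libraries depend on one another, so these values cannot decide whether the numbers pair the libraries. XMU_MP_1 replicates 1 and 3 correlated better with another number, and replicate 2 correlated best with its own. With the replicate number as a block 63 genes were higher and 26 lower, and with GC and length trends also removed 67 and 30, with a median of 0.133.

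Of 50 named genes none that passed reversed. Genes that did not pass and gained a call when the fit was limited to the close pairs were ZNF580 (-0.160, limma adjusted p = 0.00831), ZNF146 (0.134, 0.0184) and ZNF91 (0.235, 0.0178). Others, and these, changed sign. After rescaling by the summed FPKM the log2 change was -0.003 for ZNF146, -0.007 for ZNF746, -0.011 for ZNF766, -0.061 for ZNF789 and -0.004 for ZNF91. ZNF789 had -0.012 by the median ratio, -0.022 with GC and length trends removed, with and without the block, and -0.004 to 0.037 with 1 library left out. With close pairs averaged ZNF91 had -0.009 and ZNF580 0.041, and ZNF580 had -0.113 to 0.025 with 1 library left out. FPKM alone give no counts, so no limit from depth can be set.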
